A study of Homo sapiens with 8 samples.

Results

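The angiopoietins, the angiopoietin-like proteins and the vascular endothelial growth factors (VEGFs) are secreted ligands, and 8 of their genes were followed across cells transfected with 1 of 3 microRNAs (miRNAs) or a control. The members ANGPT1, ANGPT2, ANGPTL2, ANGPTL4, VEGFA, VEGFB, VEGFC and PGF were taken by symbol, as every gene probe of the array whose gene name is one of them. They were 8 of 43317 gene names on the array and had 9 of its 58201 gene probes. The cells were SAS, an established human squamous carcinoma line of the tongue, and the study describes them as SAS/GFP cells, which carry a green fluorescent protein vector. Cells of each of 4 groups received 25 nM of RNA, either a mimic of miR-629-3p, of miR-210-3p or of miR-874-3p, a short duplex made to act as the mature miRNA, or a negative control RNA (NC). The labels give 48 h from transfection to extraction and puromycin in the medium of all groups, while the methods give a shorter time and another extraction kit. Each group had 2 arrays, 8 in all, and the labels do not say whether these came from separate cultures, so the p-values measure the spread between these arrays, which may be technical. The 3 miRNAs were selected in the study by a screen of miRNAs for cisplatin resistance of head and neck cancer cells, and the arrays address which genes each of them alters.

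Angiopoietins bind the endothelial receptor TIE2, encoded by TEK, and set how firmly vessel walls are held: ANGPT1 stabilises vessels, while ANGPT2 mostly opposes it and loosens them. VEGFA, VEGFB and PGF bind VEGFR1, encoded by FLT1, VEGFA drives the growth of blood vessels through VEGFR2, encoded by KDR, and VEGFC drives that of lymphatic vessels through VEGFR3, encoded by FLT4. Angiopoietin-like proteins resemble angiopoietins in structure but do not bind TIE2. ANGPTL4 inhibits lipoprotein lipase and is switched on by fasting, by the fatty acid sensors of the PPAR family and by hypoxia, and ANGPTL2 is linked to inflammation. Carcinoma cells are a source of several of these ligands, whose receptors are found mainly on endothelial cells.

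Total RNA was labelled in 1 colour and hybridised to Agilent SurePrint G3 Human GE v3 arrays. Levels are given as the log2 of a probe's background-subtracted signal relative to the 75th percentile of the gene probes of its array, so that 0 is the signal at that percentile and 1 unit is a doubling. Between 41.8% and 49.8% of gene probes were well above background on an array, no spot was saturated, and having 2 arrays per group limits how precise each value is. All 8 arrays lay on 1 slide with 1 scan. Slide row 1 held the arrays of miR-629-3p and of miR-210-3p, with 27080 to 28994 probes well above background, and row 2 those of miR-874-3p and of NC, with 24338 to 26963. Slide row and group therefore cannot be told apart where miR-629-3p or miR-210-3p is compared with NC, whereas miR-629-3p against miR-210-3p and miR-874-3p against NC are comparisons within a row. Of 10 epithelial genes listed as squamous markers, 10 were well above background on all 8 arrays. Their summed signal, relative to the same percentile, was 624 to 662 in NC, 556 to 557 under miR-629-3p, 481 to 484 under miR-210-3p, and 579 to 651 under miR-874-3p. This sum mainly follows the brightest of the 10, SFN, at 8.23 and 8.38 in NC, and EPCAM, at 7.23 on both NC arrays. With miR-210-3p EPCAM rose while KRT5, KRT14, KRT17 and SFN fell, so the sum mixes opposite changes.

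The 3 miRNAs share no seed, the bases 2 to 8 by which a miRNA pairs with its target messages. Their mature sequences, from RefSeq on GRCh38.p14, are shown because they are what distinguished the 3 treated groups, with the seed in capitals.
hsa-miR-629-3p: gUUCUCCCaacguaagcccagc
hsa-miR-210-3p: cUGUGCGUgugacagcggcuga
hsa-miR-874-3p: cUGCCCUGgcccgagggaccga
They are encoded on the minus strand at chr15:70079387-70079408, chr11:568112-568133 and chr5:137647582-137647603, respectively. The DNA letters that would pair with the seed are GGGAGAA for miR-629-3p, ACGCACA for miR-210-3p and CAGGGCA for miR-874-3p. In the strand of the message, none of the 9 probes of the 8 genes held any of them, against 0.747%, 0.131% and 0.387% of all gene probes, respectively. A probe covers 60 bases of a message, and the rest of the messages was not searched here.

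The miR-629-3p mimic moved the largest number of the genes. The ligand genes did not shift in one direction: ANGPT2, VEGFC and VEGFA were higher than in NC, whereas ANGPTL4 and PGF were lower. With the miR-210-3p mimic, PGF, which was lower with miR-629-3p, was higher than in NC, and so was VEGFA. For miR-629-3p and miR-210-3p against NC, slide row and mimic cannot be told apart, and VEGFA passed the test within neither row. No member passed the test with miR-874-3p. A gene was tested if at least 1 group had its probe well above background on both arrays, which held for 7 of the 8 genes and 21283 genes in all, and it was called at an adjusted p under 0.05 in limma. With miR-629-3p, 3 members were called higher, against 11.3% of all genes tested, and 2 lower, against 6%. With miR-210-3p, 2 members were called higher, against 4.83% of all genes, and 0 lower, against 1.93%. With miR-874-3p, 0 members were called higher or lower in limma, against 0.216% and 0.197% of all genes, and 1 member, PGF, had an unadjusted p under 0.05. At the threshold the study used for its array comparisons, an unadjusted p under 0.05 and a change of at least 2-fold, 4 members were called for miR-629-3p (5.5% of all genes), 1 for miR-210-3p (3.27%) and 0 for miR-874-3p (2.02%). The median log2 fold change of the 7 tested members against NC was 0.16 for miR-629-3p, beside 0.073 over all genes, 0.15 for miR-210-3p, beside 0.086, and 0.14 for miR-874-3p, beside -0.0031. In these cultures, fewer cells that make a message and less message per cell cannot be told apart.

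**Figure D1:**
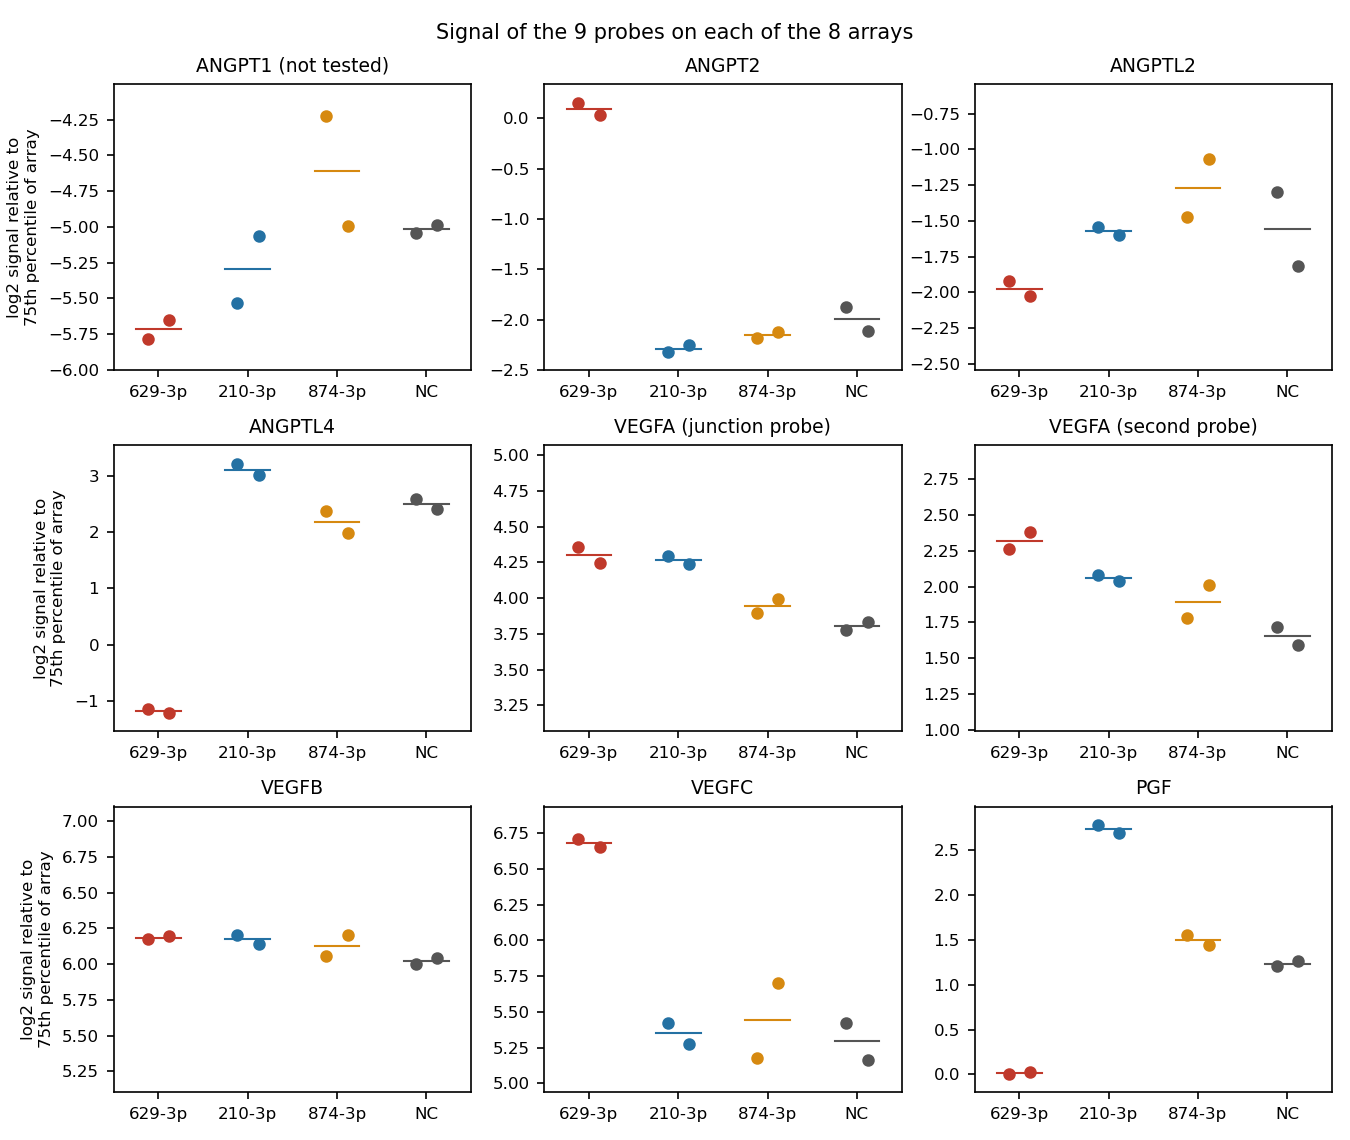
Log2 signal relative to the 75th percentile of the array (y axis, each panel on its own scale of at least 2 units) for the 9 probes, by group (x axis); points are single arrays and bars the mean of 2 arrays. ANGPTL4 and PGF were lowest and ANGPT2 and VEGFC highest in the miR-629-3p arrays, and PGF was highest in the miR-210-3p arrays.

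**Figure D2:**
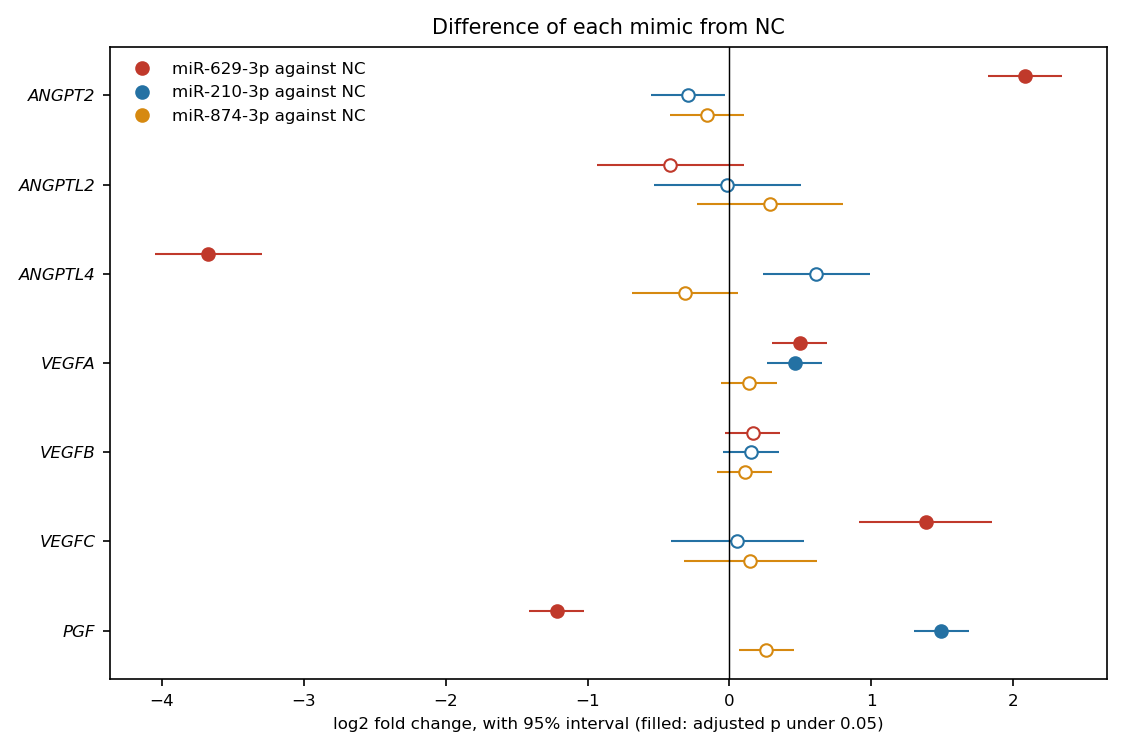
Log2 fold change of each mimic from NC (x axis) for the 7 tested genes (y axis), with 95% intervals from limma; filled points have an adjusted p under 0.05. Filled points are 5 for miR-629-3p, on both sides of 0, 2 for miR-210-3p and 0 for miR-874-3p.

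ANGPTL4, the secreted inhibitor of lipoprotein lipase, had the largest change of the 8 genes. Its probe lies at chr19:8439197-8439256 on the plus strand in the array's hg19 annotation. It read 2.58 and 2.41 in NC, -1.15 and -1.21 under miR-629-3p, 3.20 and 3.01 under miR-210-3p, and 2.37 and 1.99 under miR-874-3p. The miR-629-3p arrays stood far below all others, and all 8 arrays were well above background. Relative to NC, ANGPTL4 was lower with miR-629-3p by 12.7-fold, a log2 fold change of -3.67 (SE 0.15, 95% interval -4.05 to -3.30, adjusted p = 0.000798 in limma), the 42nd lowest value of 21283 genes. With a background correction that adds 50 to every signal (normexp), the change was -2.37 and still passed. The miR-210-3p arrays lay above both NC arrays, with a log2 fold change of 0.61 (95% interval 0.24 to 0.99). That difference missed the threshold, with an adjusted p = 0.0707 in limma, and it passed under 5 of 21 alternatives, with an adjusted p down to 0.0253. With miR-874-3p the log2 fold change was -0.31 (95% interval -0.69 to 0.061, adjusted p = 0.377 in limma). The order of the levels was therefore miR-210-3p, NC, miR-874-3p and miR-629-3p, in which miR-210-3p and NC, and NC and miR-874-3p, were not separated by the test, while miR-629-3p was separated from each of the other 3.

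The 250 bases before the start of ANGPTL4 and of PGF are shown, since these are the members that fell with miR-629-3p and differed between miR-629-3p and miR-210-3p. They come from RefSeq on GRCh38.p14, 5′ to 3′ in the strand of the gene, with each ACGTG, the core of the hypoxia response element, and each GGGCGG, the GC box bound by Sp1, in capitals on either strand.
ANGPTL4 promoter, chr19:8363905-8364154, plus strand: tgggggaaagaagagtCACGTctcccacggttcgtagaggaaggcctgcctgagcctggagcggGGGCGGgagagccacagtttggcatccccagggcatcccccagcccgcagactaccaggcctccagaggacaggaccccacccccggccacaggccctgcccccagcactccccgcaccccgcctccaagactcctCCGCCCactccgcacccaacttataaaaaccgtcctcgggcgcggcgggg
PGF promoter, chr14:74955598-74955847, minus strand: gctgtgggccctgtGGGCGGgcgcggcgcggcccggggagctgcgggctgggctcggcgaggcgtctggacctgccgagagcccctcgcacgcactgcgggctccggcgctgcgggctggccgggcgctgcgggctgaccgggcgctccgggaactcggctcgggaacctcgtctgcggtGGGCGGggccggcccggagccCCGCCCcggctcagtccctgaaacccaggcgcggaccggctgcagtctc
The ANGPTL4 window held 1 hypoxia response element core, read on the opposite strand, and 2 GC boxes. The PGF window held 0 cores and 3 GC boxes, and the window of a second annotated PGF start held 0 and 2. Of 35116 promoter windows of this length, 18.5% held ACGTG and 42.6% held GGGCGG, so both motifs are common. The AP-1 letters TGACTCA, which 4.2% of windows held, were in neither. Of the other members with a window here, VEGFB held 0 cores and 6 GC boxes, and ANGPTL2 and VEGFC held 0 cores and 2 GC boxes each. The windows of ANGPT1 and ANGPT2 were not examined.

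PGF, placental growth factor, was the only tested member whose change from NC passed the test in opposite directions with 2 of the mimics. Its probe lies at chr14:75408540-75408599 on the minus strand (hg19). It read 1.20 and 1.27 in NC, 0.0077 and 0.029 under miR-629-3p, 2.78 and 2.68 under miR-210-3p, and 1.55 and 1.44 under miR-874-3p. No group overlapped another, and the 2 arrays of a group lay at most 0.111 apart. Relative to NC, PGF fell 2.32-fold with miR-629-3p, a log2 difference of -1.22 (SE 0.078, adjusted p = 0.0023 in limma). With miR-210-3p it rose 2.82-fold, which is 1.49 in log2 units (SE 0.078, adjusted p = 0.00382 in limma). With miR-874-3p it was 0.26 higher (95% interval 0.068 to 0.45, adjusted p = 0.204 in limma). The order of the levels was miR-210-3p, miR-874-3p, NC and miR-629-3p, and only the neighbours miR-874-3p and NC were not separated by the test.

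VEGFC, the lymphatic growth factor, rose with miR-629-3p alone among the mimics tested against NC. Its probe lies at chr4:177604823-177604882 on the minus strand (hg19). It read 5.42 and 5.17 in NC, 6.71 and 6.65 under miR-629-3p, 5.42 and 5.28 under miR-210-3p, and 5.18 and 5.70 under miR-874-3p. The miR-629-3p arrays lay above the other 6, which overlapped one another. The rise was 2.61-fold, a log2 fold change of 1.38 (SE 0.19, 95% interval 0.92 to 1.85, adjusted p = 0.0114 in limma). The call was lost without either miR-629-3p array or without NC replicate 2, at adjusted p from 0.057 to 0.0738 in limma, with log2 fold changes of 1.26 to 1.41. With miR-210-3p the log2 fold change was 0.054 (95% interval -0.41 to 0.52) and with miR-874-3p 0.15 (95% interval -0.32 to 0.61), and neither passed.

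VEGFA, the main growth factor of blood vessels, showed small differences. It had 2 probes, of which the brighter one was tested. That probe is shown because it spans an exon junction, with its 60 bases spread over 412 bases at chr6:43746223-43746634 on the plus strand (hg19).
VEGFA junction probe: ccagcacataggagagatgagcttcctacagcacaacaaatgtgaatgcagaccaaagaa
The junction probe read 3.78 and 3.84 in NC, 4.36 and 4.25 under miR-629-3p, 4.29 and 4.24 under miR-210-3p, and 3.90 and 3.99 under miR-874-3p. All 4 arrays of slide row 1 thus lay above all 4 of row 2. Relative to NC, VEGFA was 1.41-fold higher with miR-629-3p (log2 fold change 0.49, 95% interval 0.30 to 0.69, adjusted p = 0.0154 in limma) and 1.37-fold higher with miR-210-3p (0.46, 95% interval 0.26 to 0.65, adjusted p = 0.0334). Within row 1, miR-629-3p and miR-210-3p differed by 0.035 (95% interval -0.16 to 0.23), and within row 2, miR-874-3p and NC differed by 0.14 (95% interval -0.058 to 0.33), and neither passed. The slide row and the mimics cannot be told apart for this gene. The call with miR-210-3p was lost under 12 of 21 alternatives, among them quantile normalization (adjusted p = 0.0686), centring on the median (0.0506) and leaving out any of the miR-629-3p, miR-210-3p or NC arrays. The call with miR-629-3p was lost without any 1 of the miR-629-3p or NC arrays. The second probe, at chr6:43753511-43753570, read 1.71 and 1.59 in NC, 2.26 and 2.38 under miR-629-3p, 2.08 and 2.04 under miR-210-3p, and 1.78 and 2.01 under miR-874-3p. Fitted with every probe as a row of its own, its log2 fold change from NC was 0.66 with miR-629-3p (adjusted p = 0.0169 in limma) and 0.40 with miR-210-3p (adjusted p = 0.083 in limma), so that the probes differed on the call with miR-210-3p.

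VEGFB, a ligand of VEGFR1, varied least of the tested members. Its probe at chr11:64006111-64006170, on the plus strand (hg19), read 6.0 and 6.05 in NC, 6.17 and 6.20 under miR-629-3p, 6.21 and 6.14 under miR-210-3p, and 6.06 and 6.20 under miR-874-3p. Both NC arrays were the lowest, and the 8 arrays lay within 0.205 of one another. The log2 fold changes from NC were 0.16 for miR-629-3p, 0.15 for miR-210-3p and 0.11 for miR-874-3p, and the widest of their 95% intervals reached 0.36, with no call.

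ANGPTL2, the inflammation-linked member, was not called in any comparison either. Its probe at chr9:129850935-129850994, on the minus strand (hg19), read -1.30 and -1.82 in NC, -1.92 and -2.03 under miR-629-3p, -1.54 and -1.60 under miR-210-3p, and -1.48 and -1.07 under miR-874-3p. The miR-629-3p arrays were the lowest, and the NC arrays lay 0.518 apart, more than the miR-629-3p level lay below their mean. The log2 fold change from NC was -0.42 with miR-629-3p (95% interval -0.93 to 0.099, adjusted p = 0.221 in limma), -0.014 for miR-210-3p and 0.29 for miR-874-3p.

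Of the angiopoietins, ANGPT2 rose with miR-629-3p and ANGPT1 was not measured above background. The ANGPT2 probe lies at chr8:6360290-6360349 on the minus strand (hg19). It read -1.87 and -2.11 in NC, 0.15 and 0.028 under miR-629-3p, -2.32 and -2.25 under miR-210-3p, and -2.18 and -2.12 under miR-874-3p. The miR-629-3p arrays stood apart, and the other 6 lay within 0.446 of one another, above the dimmest signal called well above background on the NC arrays, at -2.90 and -2.87. The rise over NC was 4.23-fold, a log2 fold change of 2.08 (SE 0.10, 95% interval 1.82 to 2.34, adjusted p = 0.00117 in limma), the 175th highest value of 21283 genes. With normexp the log2 fold change was 0.93, and it still passed. The log2 fold change was -0.29 with miR-210-3p (adjusted p = 0.147 in limma) and -0.16 with miR-874-3p (adjusted p = 0.506). The ANGPT1 probe, at chr8:108262312-108262371 on the minus strand, was not well above background on any of the 8 arrays, so no change in ANGPT1 could be measured.

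The differences between the mimics themselves were tested in the same fit. Of the 7 tested members, 4 were called between miR-629-3p and miR-210-3p, against 21.7% of all genes, 5 between miR-629-3p and miR-874-3p, against 17.3%, and 2 between miR-210-3p and miR-874-3p, against 11.1%. Within slide row 1, ANGPTL4 was 19.5-fold lower (log2 fold change -4.29, adjusted p = 0.000499 in limma) and PGF 6.55-fold lower (-2.71, adjusted p = 0.00047) with miR-629-3p than with miR-210-3p. In the same comparison ANGPT2 was 5.19-fold higher (log2 fold change 2.37, adjusted p = 0.00089 in limma) and VEGFC 2.51-fold higher (1.33, adjusted p = 0.00954). For these 4 genes the difference within the row was about as large as, or larger than, that from NC across rows. It combines the changes of both mimics, and none of the 4 arrays of row 1 is NC, so it does not give 1 mimic's change alone. The VEGFC call was lost without any 1 of these 4 arrays. Between miR-210-3p and miR-874-3p, PGF was 2.35-fold higher (log2 fold change 1.23, adjusted p = 0.00377 in limma) and ANGPTL4 1.90-fold higher (0.93, adjusted p = 0.0237) with miR-210-3p, and the ANGPTL4 call was lost without any 1 of the miR-629-3p or miR-210-3p arrays. Between miR-629-3p and miR-874-3p the called members were ANGPT2, ANGPTL4, VEGFA, VEGFC and PGF, and VEGFA lost its call under 13 of 21 alternatives. VEGFC lost this call under 4 alternatives, among them without either miR-629-3p array (adjusted p = 0.0744 and 0.0789 in limma). An F test across the 4 groups called 5 members, against 25.7% of all genes, and left out ANGPTL2 and VEGFB.

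**Figure D3:**
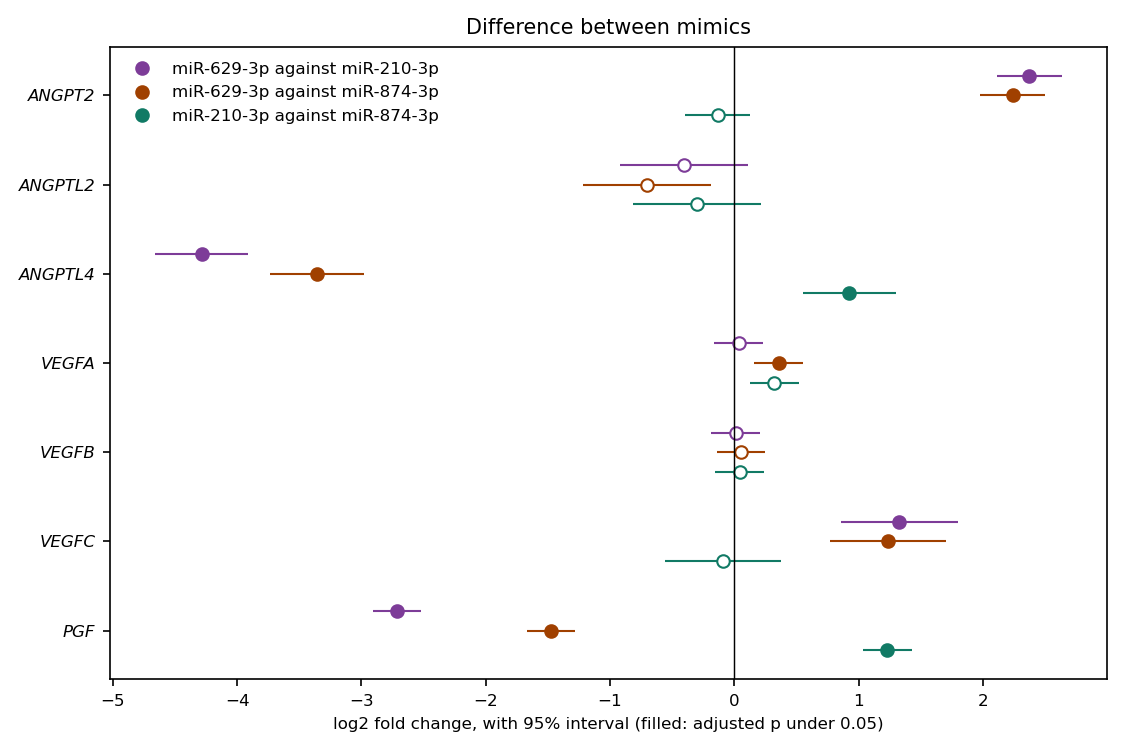
Log2 fold change between pairs of mimics (x axis) for the 7 tested genes (y axis), with 95% intervals from limma; filled points have an adjusted p under 0.05. ANGPTL4 and PGF were lower, and ANGPT2 and VEGFC higher, with miR-629-3p than with either other mimic.

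The receptors of these ligands were mostly not measured in the SAS cells. Of 7 receptor genes, FLT1 and TEK were well above background on 0 arrays, FLT4 and TIE1 on 1 and KDR on 2, and the co-receptors NRP1 and NRP2 were tested. NRP1, neuropilin-1, which binds VEGFA and PGF, read 1.56 on both NC arrays, 1.35 and 1.54 under miR-629-3p, 2.51 and 2.54 under miR-210-3p, and 1.53 and 1.25 under miR-874-3p. It rose with miR-210-3p, the mimic that raised PGF, by 0.96 on the log2 scale (adjusted p = 0.0159 in limma), and within slide row 1 its log2 fold change between miR-629-3p and miR-210-3p was -1.07 (adjusted p = 0.00563). The NRP1 call against NC was lost without any 1 of the miR-210-3p or NC arrays. Of 8 other ligand genes of these families, 0 were tested, and 6 were well above background on no array.

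Of the regulators of these genes, 10 hypoxia-inducible factor (HIF) pathway genes were tested, and with miR-629-3p 2 of them rose and 1 fell, beside 11.3% of all genes higher and 6% lower. HIF1A, the oxygen-regulated subunit, read 4.62 and 4.63 in NC, 5.48 and 5.36 under miR-629-3p, 4.72 and 4.67 under miR-210-3p, and 4.57 and 4.66 under miR-874-3p. It rose by 0.79 on the log2 scale (adjusted p = 0.00557 in limma), and ARNT2, a partner subunit, by 0.82 (adjusted p = 0.0352). EGLN1, a prolyl hydroxylase that marks HIF1A for degradation, changed by -0.43 (adjusted p = 0.031). Within slide row 1, HIF1A was 0.73 higher with miR-629-3p than with miR-210-3p (adjusted p = 0.00547 in limma). In that comparison ARNT2, at 0.21 (adjusted p = 0.467), and EGLN1, at -0.32 (adjusted p = 0.0553), did not pass. ARNT2 was 0.62 higher with miR-210-3p than in NC (adjusted p = 0.101 in limma), and none of the 10 was called against NC with miR-210-3p or miR-874-3p. The ARNT2 and EGLN1 calls were lost without any 1 of the miR-629-3p, miR-210-3p or NC arrays, and the HIF1A call was not lost without any array.

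Of 12 genes of the PPAR receptors and of PPAR targets that respond along with ANGPTL4, 9 were tested, and with miR-629-3p 3 of them fell and 0 rose, beside 6% of all genes lower and 11.3% higher. ACADVL, a fatty acid oxidation enzyme, changed by -0.45 (adjusted p = 0.0202 in limma), FABP5, a fatty acid carrier, by -0.51 (adjusted p = 0.0373) and CPT1A, which brings fatty acids into mitochondria, by -0.28 (adjusted p = 0.0455). CPT1A was higher with miR-210-3p by 0.44 (adjusted p = 0.0276 in limma). These changes are small beside that of ANGPTL4, and each of the 4 calls was lost without any 1 of the miR-629-3p, miR-210-3p or NC arrays. Where all probes of a gene were averaged, FABP5 and CPT1A were not called with miR-629-3p against NC (adjusted p = 0.0633 and 0.0503 in limma). Within slide row 1, between miR-629-3p and miR-210-3p, FABP5 and ACADVL did not pass (adjusted p = 0.0796 and 0.0805 in limma), while CPT1A did (log2 fold change -0.72, adjusted p = 0.00439). The targets PDK4, PLIN2 and FABP4 were well above background on no array. Of 7 genes of the lipoprotein lipase axis, 3 were tested, LPL itself was well above background on 1 array, and SDC1, a heparan sulfate proteoglycan, was called with miR-210-3p, at 0.33 higher (adjusted p = 0.0434 in limma), a call lost under 12 of 21 alternatives.

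Of 8 proteases and cofactors that process these ligands, 6 were tested. PCSK7, a proprotein convertase that can cleave VEGFC, was higher with miR-629-3p by 0.54 on the log2 scale (adjusted p = 0.0138 in limma), a call lost without either miR-629-3p array or NC replicate 2. FURIN, which cleaves the same precursors, read -0.43 and -0.84 in NC, 0.15 and -0.0047 under miR-629-3p, -0.91 and -0.76 under miR-210-3p, and -1.07 and -0.70 under miR-874-3p. Its log2 fold change of 0.71 from NC missed the threshold (adjusted p = 0.055 in limma), while that of 0.91 from miR-210-3p passed (adjusted p = 0.0246). CCBE1, the cofactor of VEGFC activation, lay between 2.10 and 2.25 on all 8 arrays.

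**Figure D4:**
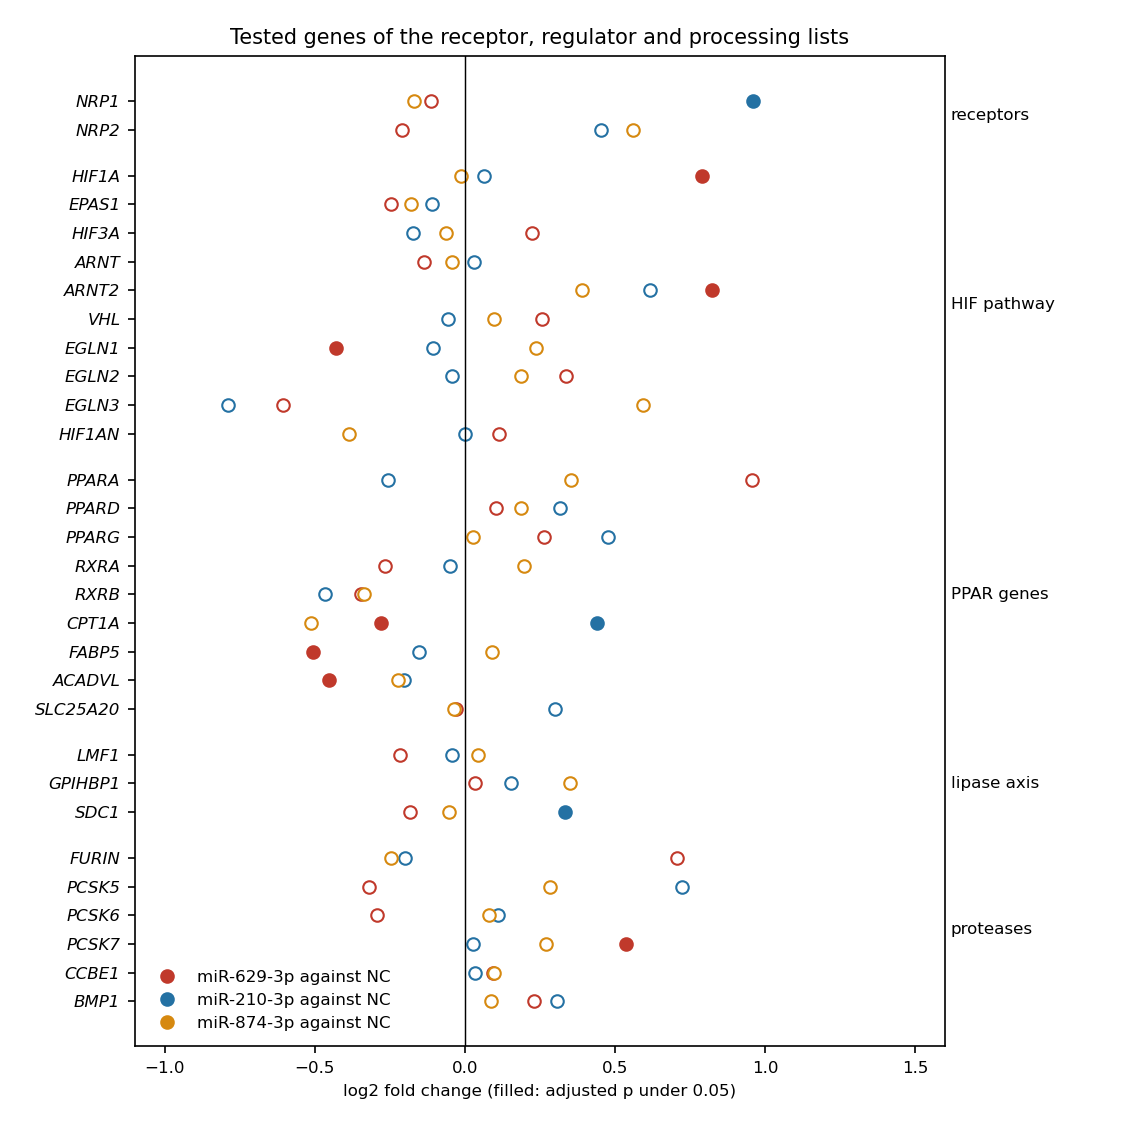
Log2 fold change of each mimic from NC (x axis) for the tested genes of the receptor, HIF, PPAR, lipoprotein lipase and protease lists (y axis); filled points have an adjusted p under 0.05 in limma. Filled points are 7 for miR-629-3p, 3 for miR-210-3p and 0 for miR-874-3p, all within 1 unit of 0.

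Markers of endothelial cells and fibroblasts were examined beside the ligands. Of 10 endothelial markers, 5 were tested, and TEK, CLDN5 and EMCN were well above background on no array. The summed signal of the 5 was 12.4 to 12.6 in NC, 11.6 to 12.1 under miR-629-3p, 11.3 to 12.4 under miR-210-3p, and 11.6 to 12.9 under miR-874-3p. This sum is mostly EGFL7, by far the brightest of the 5, which read 3.40 and 3.45 in NC. With miR-629-3p EGFL7 changed by -0.27 (adjusted p = 0.073 in limma), whereas the log2 fold changes of PECAM1, CDH5, VWF and ESAM were above 0. The median of the 5 was 0.42. VWF, the clotting factor carrier of endothelial cells, was called higher with miR-629-3p, by 0.94 (adjusted p = 0.0125 in limma), and by 0.25 with no call where all its probes were averaged. PECAM1 was well above background on both miR-629-3p arrays and on no other, so it entered the test through that group alone. Its log2 fold change of 0.98 from NC was not called (adjusted p = 0.125 in limma), while its differences from miR-210-3p and miR-874-3p passed. It read -3.55 and -3.57 in NC. The dimmest signal called well above background was -3.74 and -3.60 on the miR-629-3p arrays, lower than the -2.90 and -2.87 on the NC arrays. Of 8 fibroblast markers, 5 were well above background on no array, and the summed signal of the 2 tested, COL1A1 and PDGFRB, was 0.406 to 0.408 in NC, 0.549 to 0.56 under miR-629-3p, 0.799 to 1.87 under miR-210-3p, and 0.439 to 0.479 under miR-874-3p. The upper value under miR-210-3p came from COL1A1 on 1 array, as COL1A1 read -1.64 and 0.51 there. COL1A1 was well above background on 0 NC arrays. Its log2 fold change of 2.93 from NC with miR-210-3p was not called (adjusted p = 0.0546 in limma), while its difference between miR-629-3p and miR-210-3p passed (adjusted p = 0.0332). PDGFRB was called higher with miR-629-3p (log2 fold change 0.52, adjusted p = 0.0158 in limma) and with miR-210-3p (0.53, adjusted p = 0.0278). Its arrays of slide row 1 all lay above those of row 2, so slide row and mimic cannot be told apart. Within row 1, miR-629-3p and miR-210-3p differed by -0.014 (adjusted p = 0.924 in limma). Where all probes of PDGFRB were averaged, its log2 fold change was 1.77 with miR-629-3p, still called, and 0.25 with miR-210-3p, with no call (adjusted p = 0.402 in limma). Of the squamous markers, with miR-629-3p DSG3 rose and KRT14 and KRT17 fell, and with miR-210-3p EPCAM rose and KRT5, KRT14, KRT17 and SFN fell. Each of the calls against NC on these marker genes was lost without at least 1 of the arrays. KRT14 and KRT17 were also lower on every array of slide row 1 than on any of row 2. Between miR-629-3p and miR-210-3p, within row 1, they did not pass (adjusted p = 0.0701 and 0.106 in limma). In that comparison KRT5, SFN, DSG3 and DSP were called higher, and CDH1 and EPCAM lower, with miR-629-3p. The log2 fold change was -0.64 for CDH1 (adjusted p = 0.0184 in limma) and 0.36 for DSP (adjusted p = 0.0398). Where all probes of KRT14 were averaged, its log2 fold change with miR-629-3p was -0.51, with no call (adjusted p = 0.103 in limma). The part of the marker genes in the ligand values was not tested.

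The genes whose pattern over the 8 arrays was most like that of each called member were listed as a description, among 17400 genes well above background on all arrays. The arrays form 4 groups of 2 and share 1 slide, so the likeness mostly follows the group means. ANGPT2 was closest to SAP30BP, HCFC2 and IL18 (Pearson's r 0.995 to 0.997), and VEGFC to CLIP4, AMIGO2 and PSG1 (0.996 to 0.998). ANGPTL4 was closest to XLOC_l2_000866, SCARNA18 and SNORA11C (0.995 to 0.996), and PGF to TMEM65, SNORD68 and ZNF780A (0.993 to 0.996). VEGFA was closest to PARD6A, NIPA1 and PRKCA (0.986 to 0.991). No gene was named for 2 of the members.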

How the data were processed

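Whole-transcriptome arrays of 8 samples in 4 groups of 2 were analysed, with groups and replicate numbers taken from the sample labels. The scanner files, deposited per array, come from Agilent Feature Extraction 11.5.1.1 (the submitters' processing notes) and hold intensity values that the authors' software had background-subtracted but not normalized between arrays, with a mean signal, a local background and flags. A deposited table of log2 values of these arrays matched the values used here to within 0.05 for 100% of probes after an offset of 0.0058 to 0.00755 per array, with column medians of -3.68 to -3.36, and served as an alternative.

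Control spots and outlier spots (87 to 346 of 60901 per array) were left out, replicate spots were averaged per probe on the log2 scale, and each array's 75th percentile was subtracted. Of 58201 gene probes, 27303 had values on all 8 arrays and passed background on each array of 1 or more groups, and the brightest probe of each gene name was used, which left 21283 of 43317 names. A model with 1 mean per group was fitted to all 8 arrays in R 4.3.3 with limma 3.58.1 (lmFit, eBayes; 4 residual degrees of freedom and 1.70 from the prior), and p-values were adjusted by Benjamini-Hochberg over the 21283 genes. Probe positions are those of the hg19 annotation of the array. The 3 miRNAs and, of the members, ANGPTL2, ANGPTL4, VEGFB, VEGFC and PGF were matched to RefSeq sequence tables of GRCh38.p14. Members on chromosome 8, which are ANGPT1 and ANGPT2, were left out of the promoter windows by rule.

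The named genes are all members, the genes of the lists called against NC, and the 3 genes most like each member called across the groups. At most 4 called genes were named per list and mimic, by the size of the change. For the marker lists all called genes were named, and the others mostly entered only counts and sums. FURIN, CCBE1, LPL, NRP2, PECAM1, CDH5, ESAM, EGFL7, COL1A1, CDH1, DSP and genes not above background were named after their values were seen. The members and lists were chosen with earlier results of these data known.

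The alternatives were normexp with an offset of 50, median centring, quantile normalization, the deposited log2 values, outlier spots kept, signals floored at the dimmest detected one, detection on all 8 arrays, no detection filter, the mean of all probes, only the groups compared, a trend in eBayes, a block for the replicate number, the t-test and ANOVA that the methods name, the 2-fold threshold and each array left out in turn. Fitting every probe on its own was chosen after seeing the data. On simulated data for miR-629-3p against NC with 200 of 21283 genes changed, the fit recovered 51% of changes of 1 log2 unit and 86% of changes of 2 log2 units, with 5 false calls. The simulated data had fewer changed genes than were called in the real data and no slide row effect. These rates therefore need not hold for the real arrays.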

Additional observations from a re-analysis of the deposited data

How the results depend on the processing

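ANGPT2, ANGPTL4 and PGF kept their calls for miR-629-3p against NC under 20 of 21 alternatives each, with log2 fold changes of 0.93 to 2.20, -3.76 to -2.37 and -1.30 to -0.83, and lost them under the methods' t-test with adjustment, as did PGF for miR-210-3p against NC. That test called 0 members for each mimic against NC, for miR-629-3p against miR-874-3p and for miR-210-3p against miR-874-3p. Without adjustment it gave 6 members for miR-629-3p and 3 for miR-210-3p at p under 0.05. The share of all genes that pass this unadjusted t-test was not counted, so these counts say nothing particular to the members. For miR-210-3p against NC, 1 member, PGF, was called in place of 2 with quantile normalization, median centring, no detection filter, only the groups compared, the 2-fold threshold or the replicate number as a block. The pairing by number had correlations of -0.106 to 0.034 between groups, so replicates share only a number. Without a detection filter, 1 member was called for miR-210-3p against miR-874-3p and 3 across the 4 groups. With only the groups compared, 3 were called for miR-629-3p against miR-874-3p and 0 for miR-210-3p against miR-874-3p, and with the 2-fold threshold 1 for the latter.

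Leaving out 1 array at a time, which assumes that a lone array varies like the other groups, gave 3 to 5 members for miR-629-3p against NC, 1 to 3 for miR-210-3p against NC, 0 to 0 for miR-874-3p against NC, 3 to 4 for miR-629-3p against miR-210-3p, 3 to 5 for miR-629-3p against miR-874-3p, 1 to 2 for miR-210-3p against miR-874-3p and 3 to 5 across the groups. The share of all genes called in these fits was not counted either. Uncalled values near 0 changed sign. ANGPTL2 with miR-210-3p was 0.015 with normexp and -0.27 to 0.24 over the arrays left out. VEGFC with miR-210-3p was -0.0027 with quantile normalization, -0.025 with median centring and -0.074 to 0.18 over the arrays left out, and VEGFC with miR-874-3p was -0.11 to 0.41. The causes were not tested. No scaling moved the median of all genes by more than 0.1 on the log2 scale. The slide row as a block was not run because the arrays of a group all lie in 1 row.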
